A study of Homo sapiens with 12 samples.

Results

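Axon guidance ligands and receptors are the secreted and membrane proteins that steer growing axons. They comprise the semaphorins with their plexin and neuropilin receptors, the ephrins with their Eph receptors, the slits with their robo receptors, and the netrins with DCC and the UNC5 receptors. The genes were taken by symbol alone, with no use of measured values, and 69 of the 58278 genes listed in each library met the rule. Their mRNA was measured in HK2 cells, an immortalised human line derived from proximal tubule epithelium, with 2 biological replicates in each of 6 groups. Ctrl cells were untreated, and TN cells received the inflammatory cytokine TNF-α at 5 ng/mL for 3 h. The short-chain fatty acids (SCFAs) propionate, at 15 mM, and butyrate, at 3 mM, were given for 24 h, and the same TNF-α came after them in PRTN and BUTN and before them in TNPR and TNBU. Every SCFA group therefore also received TNF-α, and no group with an SCFA but without TNF-α was analysed here. Groups were taken from the sample titles, and agents, doses and times from the source names, which the study's design text and methods match, whereas the treatment field of the labels names other agents (thapsigargin and JQ1) for every sample. The labels give the TN cells no such 24 h period, so the time in culture and the SCFA cannot be told apart in the comparisons with TN, and the 4 comparisons share the same TN libraries.

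A guidance ligand binds a receptor on a neighbouring cell or on the growth cone and changes the actin cytoskeleton and adhesion of the receiving cell, so that it is attracted or repelled. The same families act outside the nervous system, where they take part in epithelial adhesion, branching and blood vessel growth. In the kidney, SLIT2 and ROBO2 are known for the placement of the ureteric bud, and semaphorins and netrins have been studied in the injured tubule.

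The libraries held from 27269986 to 33851130 expected counts, which are estimated reads per gene. Levels are given in CPM (a gene's counts scaled to the total of its library and its TMM factor), and 3 counts stood at 0.0867 to 0.112 CPM. Of the 69 genes, 66 passed the filter of a geometric mean of 1 over the 12 libraries, taken after adding 1 to each count and subtracting it again, and were tested. The other 3 were PLXNA4, UNC5D and the netrin receptor DCC, and DCC had 0 counts in each library, which allows a level of up to 3 counts in each (counting error only). Of the 66, 62 would also have passed on the Ctrl and TN libraries alone, while SEMA6D, EPHA7, EPHA8 and NTN5 passed only with the SCFA libraries, where they are high, so that their calls are given as a description. A gene was called at a fold change over 1.5 with an adjusted p under 0.05 from limma-voom. With 2 libraries a group, the p-values rest on a spread shared among the 6 groups.

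After SCFA treatment, nearly equal numbers of guidance genes rose above TN in the 4 groups, and more rose than fell. In PRTN, 32 of the 66 genes (48.5%) were called higher than TN and 11 (16.7%) lower, where 23.9% of all 24342 tested genes were higher and 16.7% lower. In BUTN, 31 (47.0%) were higher and 9 (13.6%) lower, against 23.1% and 14.8% of all genes. In TNPR, 33 (50%) were higher and 12 (18.2%) lower, against 24.9% and 16.9%. In TNBU, 32 (48.5%) were higher and 12 (18.2%) lower, against 25.0% and 16.5%. The share of guidance genes that rose was above the background in each group, whereas the share that fell was close to it. With scaling by library size in place of TMM, the median of all genes moved to 0.24, 0.23, 0.29 and 0.29 (log2). Of all 24342 tested genes, 6785, 6579, 7232 and 7329 were then higher and 3127, 2656, 3132 and 2849 lower. The higher ones were 68.5%, 71.2%, 69.8% and 72% of the genes called in either direction. Of the 66 guidance genes, 35, 33, 35 and 36 were then higher and 9, 8, 10 and 10 lower. Over the 66 genes, the median log2 fold changes were 0.64, 0.66, 0.57 and 0.60 in PRTN, BUTN, TNPR and TNBU, beside 0.09, 0.08, 0.12 and 0.09 for all genes. With the genes that had 0 counts in TN set to their lower bound, the medians were 0.56, 0.63, 0.57 and 0.56. In each of the 4 groups the same 28 genes were higher (background 18.4%) and the same 9 lower (11.9%), 16 were called in none, and 0 were higher in one group and lower in another. Without the 4 genes that passed the filter only with the SCFA libraries, 30, 29, 29 and 29 of 62 genes were higher and 11, 9, 12 and 12 lower in PRTN, BUTN, TNPR and TNBU, with 26 higher and 9 lower in each. Of the 69 genes, 19 also belong to an axon guidance term that was picked on these same libraries, so the direction of these 19 is no independent evidence.

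**Figure D1:**
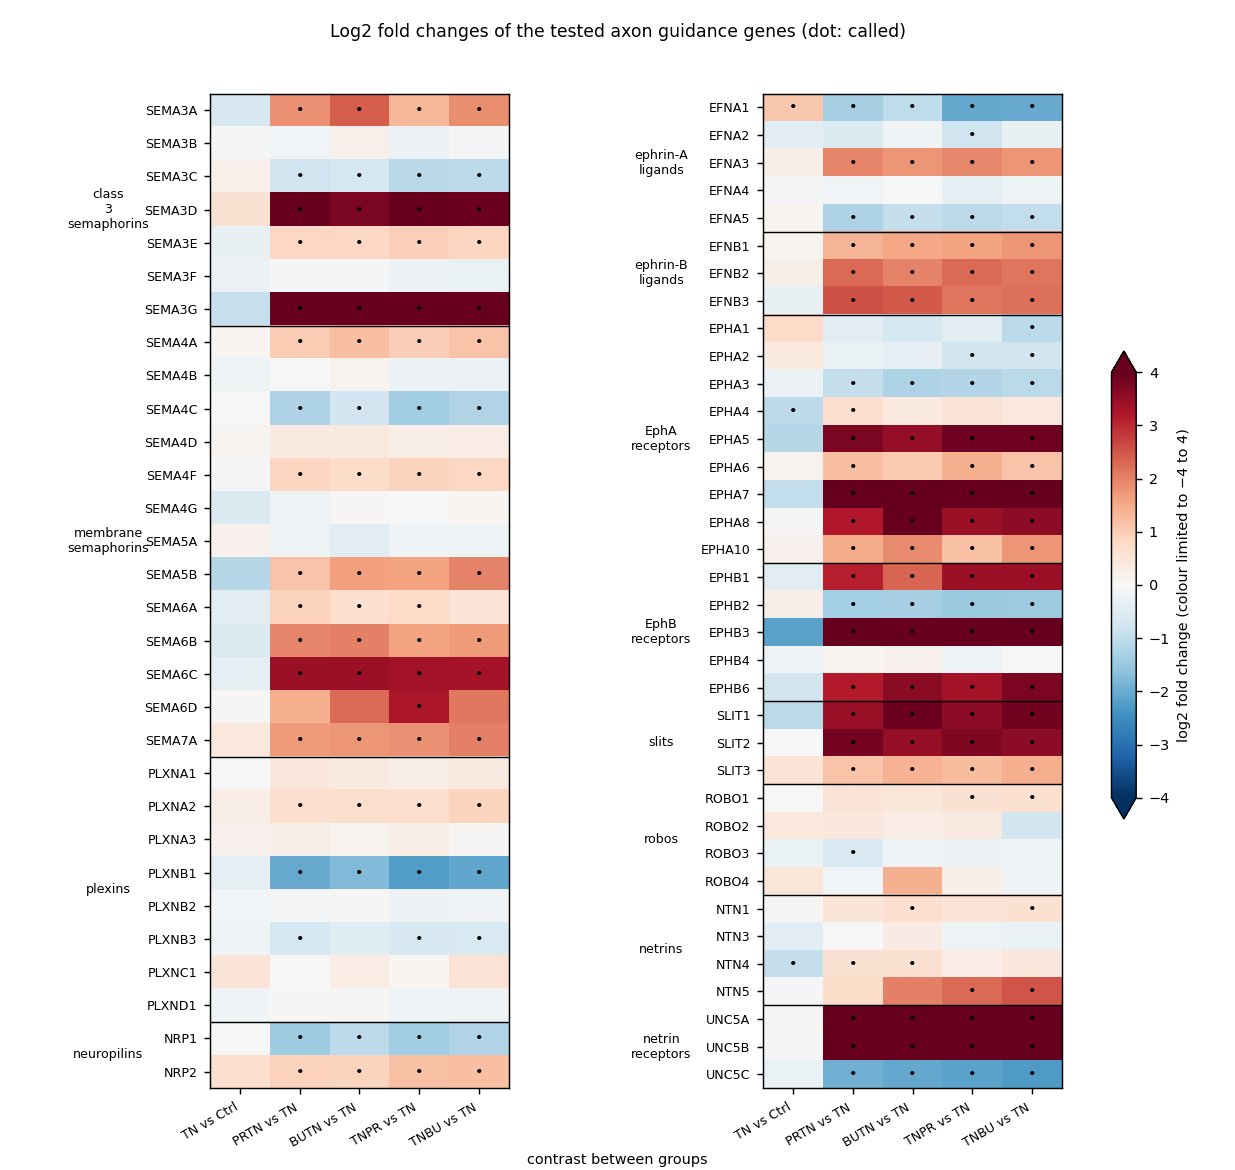
Log2 fold change of each of the 66 tested genes (rows, grouped by family) in TN against Ctrl and in each SCFA group against TN (columns), with colour limited to 4 in either direction and a dot where the gene was called. The 4 SCFA columns show nearly the same pattern, while the TN column holds 3 dots. The same 28 genes were called higher in all 4 SCFA columns and the same 9 lower. Of all tested genes, 18.4% were higher in all 4 and 11.9% lower.

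The rises lay mainly among genes at low level. Of 15 genes with a mean under 1 CPM over the 12 libraries, 9 rose and 1 fell in PRTN, and of 17 genes at 1 to 10 CPM, 13 rose and 0 fell. The 15 include SEMA6D, EPHA7, EPHA8 and NTN5, which passed the filter only with the SCFA libraries, and EPHA7 and EPHA8 are among the 9. The mean includes the SCFA libraries, so the level at which a gene is placed depends in part on its rise. Of 34 genes at 10 CPM or more, 10 rose and 10 fell. All tested genes had a smaller share of rises at each level, with 24.3%, 35.8% and 18.0% higher in PRTN, beside 60%, 76.5% and 29.4% of the guidance genes. The same order held in BUTN, with 53.3%, 70.6% and 32.4% of the guidance genes higher, against 25.1%, 35.8% and 15.3% of all genes. In TN, 21 of the tested genes had a mean under 1 CPM.

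**Figure D2:**
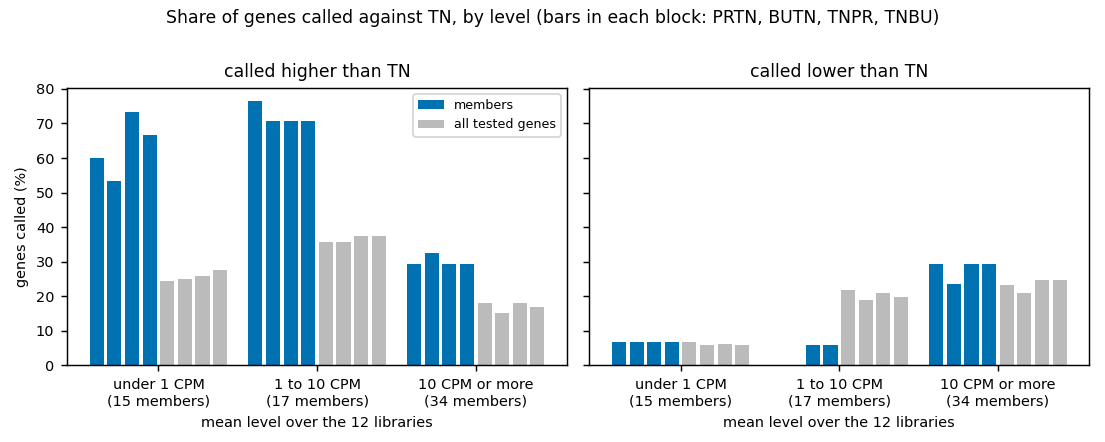
Percentage of genes called higher (left) or lower (right) than TN, by mean level over the 12 libraries, for the guidance genes and for all tested genes, with bars for PRTN, BUTN, TNPR and TNBU in that order. Under 10 CPM, 53.3% to 76.5% of the guidance genes were higher, and at 10 CPM or more 29.4% to 32.4%. The mean includes the SCFA libraries, and the lowest level holds SEMA6D, EPHA7, EPHA8 and NTN5, which passed the filter only with those libraries.

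The promoters of 3 genes that rose and 3 that fell are shown to let the sequences just before their start sites be compared. Each run is the 200 bases before the RefSeq start (GRCh38.p14), read 5′ to 3′ on the strand of the gene, with GC boxes (GGGCGG on either strand) in capitals. EPHB3 is at chr3:184561585-184561784 (plus strand), SLIT2 at chr4:20251705-20251904 (plus), EFNB2 at chr13:106535663-106535862 (minus), PLXNB1 at chr3:48430087-48430286 (minus), EPHB2 at chr1:22710638-22710837 (plus) and EFNA1 at chr1:155127676-155127875 (plus). The first 3 rose in each SCFA group and the others fell.
EPHB3: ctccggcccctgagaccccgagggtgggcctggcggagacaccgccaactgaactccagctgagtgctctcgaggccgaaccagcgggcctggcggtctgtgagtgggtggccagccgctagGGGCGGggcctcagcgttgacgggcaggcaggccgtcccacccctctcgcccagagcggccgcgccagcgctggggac
SLIT2: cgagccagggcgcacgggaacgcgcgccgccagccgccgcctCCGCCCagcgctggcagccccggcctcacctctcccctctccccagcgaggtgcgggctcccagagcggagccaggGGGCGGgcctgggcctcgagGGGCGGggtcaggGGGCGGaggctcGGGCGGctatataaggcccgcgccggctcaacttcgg
EFNB2: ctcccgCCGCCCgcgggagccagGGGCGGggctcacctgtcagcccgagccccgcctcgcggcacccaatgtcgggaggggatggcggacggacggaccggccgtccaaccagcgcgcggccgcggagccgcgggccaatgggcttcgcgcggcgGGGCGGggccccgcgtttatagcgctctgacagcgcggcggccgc
PLXNB1: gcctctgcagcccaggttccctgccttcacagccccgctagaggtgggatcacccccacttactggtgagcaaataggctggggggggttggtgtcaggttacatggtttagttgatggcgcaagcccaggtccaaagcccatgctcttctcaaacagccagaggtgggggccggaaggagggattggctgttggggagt
EPHB2: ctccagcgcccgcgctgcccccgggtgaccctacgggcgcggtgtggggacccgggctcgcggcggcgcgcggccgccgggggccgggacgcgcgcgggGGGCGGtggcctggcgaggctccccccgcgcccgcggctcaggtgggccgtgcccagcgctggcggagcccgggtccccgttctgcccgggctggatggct
EFNA1: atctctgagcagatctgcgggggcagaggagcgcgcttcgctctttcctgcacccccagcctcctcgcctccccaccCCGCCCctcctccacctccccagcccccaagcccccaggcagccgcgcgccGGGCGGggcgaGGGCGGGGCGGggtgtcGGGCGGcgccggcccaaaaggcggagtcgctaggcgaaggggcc

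In these runs, SLIT2 and EFNA1 each held 5 GC boxes (a pair of them overlapping by 1 base in EFNA1), EFNB2 held 3, EPHB3 and EPHB2 held 1 each and PLXNB1 held 0, so the number ran from 1 to 5 among the genes that rose and from 0 to 5 among those that fell. RefSeq promoters of 300 bases, from 250 before to 50 after the start, were found for 59 of the 69 genes, among 27305 in all. A GC box, the site known to bind SP-family factors, was in 76.3% of the 59, in 19 of 23 promoters of genes higher in each SCFA group (82.6%) and in 5 of 8 of genes lower in each (62.5%). It was in 44.6% of all promoters and in 65.5% of those of the tested genes. The promoters of all tested genes that were higher or lower in each group held it in 66.7% and 65.5%. The E-box CACGTG was in 6.78% of the 59 against 7.43% of all promoters and 9.63% of those of the tested genes, the cyclic AMP response element TGACGTCA in 3.39% against 1.98% and 2.81%, and an NF-κB consensus site in 10.2% against 10.8% and 13.1%. TTCAGCACC, a partial match to the RE1 element that binds the neuronal gene repressor REST, was in 0 of the 59, in 0.403% of all promoters and in 0.349% of those of the tested genes.

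Semaphorins are the largest family among these genes, and the secreted class 3 members, which signal through neuropilins and plexins, divided by level. SEMA3C (chromosome 7, 80742538 to 80922359, minus strand, GRCh38), the class 3 gene of highest level per kilobase, was at 557 and 547 CPM in Ctrl and 655 and 617 CPM in TN. It was at 366 and 361 CPM in the PRTN libraries, 397 and 394 in those of BUTN, 340 and 257 in those of TNPR and 376 and 248 in those of TNBU, so each SCFA library was below each TN library. The log2 fold changes against TN were -0.81, -0.69, -1.10 and -1.06 (standard error 0.15 each, adjusted p from 3.93e-05 to 0.00163). With scaling by library size the change in BUTN was -0.53 and was not called. SEMA3F, the next in level, was not called, at 99.9 and 124 CPM in TN and between 88.6 and 109 CPM in the SCFA libraries. SEMA3B was not called either.

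SEMA3A, SEMA3D, SEMA3E and SEMA3G rose from low levels. SEMA3G (chromosome 3, 52433035 to 52445103, minus strand) had 0 and 0.323 CPM in TN and 0.103 and 0.179 CPM in Ctrl. It reached 4.08 and 5.05 CPM in the PRTN libraries, 4.82 and 5.81 in those of BUTN, 3.11 and 3.39 in those of TNPR and 3.64 and 3.55 in those of TNBU, with log2 fold changes of 5.81, 6.04, 5.33 and 5.48 (standard errors 0.84 and 0.85, adjusted p at most 0.000146). SEMA3D (chromosome 7, 84995553 to 85187056, minus strand) was at 0.149 and 0.0718 CPM in TN, 1.94 and 1.98 in the PRTN libraries, 1.56 and 1.73 in those of BUTN, 2.07 and 2.14 in those of TNPR and 1.68 and 2.02 in those of TNBU. On the log2 scale SEMA3D rose by 4.01, 3.77, 4.12 and 3.93 (standard error 0.47). SEMA3A, the best known repellent of the class, rose by 1.84, 2.41, 1.33 and 1.85 on the log2 scale, and SEMA3E by 0.83, 0.82, 0.95 and 0.85. SEMA3A, SEMA3D and SEMA3E also lie on chromosome 7 and moved in the opposite direction to SEMA3C. SEMA3C made up 79.7% of the class per kilobase of exon in TN, and the summed level was 131 ± 0.685 CPM per kb in TN (SD, n = 2) and 86.3 ± 0.324 in the PRTN libraries, 92.3 ± 0.739 in those of BUTN, 72.9 ± 11.8 in those of TNPR and 74.8 ± 15.3 in those of TNBU, while 4 of the 7 genes rose.

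Of the 13 membrane semaphorins, 7 were higher and 1 lower in both PRTN and BUTN, 8 higher and 1 lower in TNPR, and 6 higher and 1 lower in TNBU. Of all tested genes, 23.9%, 23.1%, 24.9% and 25.0% were higher in PRTN, BUTN, TNPR and TNBU and 16.7%, 14.8%, 16.9% and 16.5% lower. SEMA6C had the largest rise among those at 1 CPM or more in TN, from 2.05 and 2.33 CPM to between 20.6 and 24.6 CPM in the SCFA libraries (log2 fold changes 3.45, 3.42, 3.37 and 3.33, standard error 0.17). SEMA7A, a glycolipid-anchored semaphorin that binds PLXNC1 and integrins, was at 8.41 and 9.26 CPM in TN, 27.4 and 30.7 in the PRTN libraries, 29.6 and 30.6 in those of BUTN, 24.8 and 40.2 in those of TNPR and 31.0 and 40.7 in those of TNBU. For SEMA7A the log2 fold changes were 1.71, 1.77, 1.83 and 2.01. SEMA6B rose by 1.95, 2.0, 1.61 and 1.69 on the log2 scale, and SEMA4A, SEMA4F and SEMA5B also rose in each group. SEMA6A rose in PRTN, BUTN and TNPR (0.92, 0.67 and 0.80) and was at 0.54 in TNBU, under the 1.5-fold threshold. SEMA4D, SEMA4G and SEMA5A were not called. The gene of highest level per kilobase, SEMA4B (chromosome 15, 90160604 to 90229679, plus strand), was not called in any comparison. Its level was 83.7 and 98.6 CPM in TN, 90.6 and 93.9 in the PRTN libraries, 101 and 99.1 in those of BUTN, 86.8 and 67.8 in those of TNPR and 85.7 and 70.8 in those of TNBU. SEMA4C (chromosome 2, 96859718 to 96870757, minus strand), a ligand of PLXNB2, was the 1 membrane semaphorin that fell, from 67.5 and 74.2 CPM in TN to 30.1 and 30.3 in the PRTN libraries, 43.7 and 39.6 in those of BUTN, 32.0 and 22.3 in those of TNPR and 34.1 and 28.2 in those of TNBU. Its log2 fold changes were -1.23, -0.77, -1.40 and -1.19 (standard error 0.13, adjusted p at most 0.000219). SEMA6D, tested only through its SCFA libraries, had 0 counts in Ctrl and TN and was called higher in TNPR, where 4 and 7 counts gave an at least 1.56-fold higher level than 3 counts in each TN library.

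Plexins are the signalling receptors for semaphorins. Of the 8 tested, 1 was higher in each SCFA group, and 2, 1, 2 and 2 were lower in PRTN, BUTN, TNPR and TNBU. Of all tested genes, 23.9%, 23.1%, 24.9% and 25.0% were higher and 16.7%, 14.8%, 16.9% and 16.5% lower. PLXNB2 (chromosome 22, 50274979 to 50307646, minus strand), the plexin of highest level per kilobase, was at 358 and 434 CPM in TN, 380 and 389 in the PRTN libraries, 424 and 391 in those of BUTN, 371 and 308 in those of TNPR and 385 and 336 in those of TNBU. Its log2 fold changes lay between -0.22 and 0.05 (standard error 0.10). PLXNB2, PLXND1, PLXNA1 and PLXNA3 were not called. PLXNB1 (chromosome 3, 48403854 to 48430086, minus strand), a receptor for SEMA4D, fell from 77.6 and 85.2 CPM in TN to 19.4 and 21.0 in the PRTN libraries, 25.7 and 22.5 in those of BUTN, 18.8 and 16.2 in those of TNPR and 19.7 and 19.1 in those of TNBU. Every SCFA library was below every TN library, with log2 fold changes of -2.01, -1.76, -2.22 and -2.07 (standard error 0.09, adjusted p from 1.75e-09 to 1e-08), the smallest adjusted p among the guidance genes in each of these comparisons. PLXNB3 was lower in PRTN, TNPR and TNBU (log2 fold changes -0.70, -0.64 and -0.61) and at -0.47 in BUTN without a call, and its exons overlap those of SRPK3 on the same strand. PLXNA2 was the 1 plexin that rose, by 0.67, 0.70, 0.71 and 0.88 on the log2 scale. PLXNC1, the receptor of SEMA7A, stayed at 0.913 to 1.79 CPM in the TN and SCFA libraries and was not called.

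Neuropilins are co-receptors that class 3 semaphorins share with vascular endothelial growth factor, and the pair moved in opposite directions. NRP1 (chromosome 10, 33177492 to 33336262, minus strand) was at 47.2 and 48.0 CPM in Ctrl and 47.6 and 47.0 CPM in TN. It was at 17.8 and 17.2 CPM in the PRTN libraries, 23.8 and 21.6 in those of BUTN, 17 and 19.0 in those of TNPR and 20.3 and 20.6 in those of TNBU, with log2 fold changes of -1.43, -1.06, -1.39 and -1.21 (standard error 0.07 or 0.08, adjusted p at most 1.54e-07). NRP2, which prefers SEMA3F where NRP1 prefers SEMA3A, went from 16.4 and 18.7 CPM in TN to 34.2 and 31.9 in the PRTN libraries, 31.7 and 32.7 in those of BUTN, 32.7 and 48.0 in those of TNPR and 35.6 and 44.6 in those of TNBU. For NRP2 the log2 fold changes were 0.92, 0.88, 1.17 and 1.19 (standard error 0.17). Per kilobase of exon, NRP1 made up 83.8% of the neuropilin level in Ctrl and 76.5% in TN, but 39.0%, 45.9%, 35.5% and 38.3% in PRTN, BUTN, TNPR and TNBU. NRP1 and NRP2 each overlap an antisense non-coding RNA, and whether the counting used strand is not given in the sources used here.

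Among the ephrins, the transmembrane B ligands rose together and the lipid-anchored A ligands did not. EFNB2 (chromosome 13, 106489745 to 106535662, minus strand), the B ephrin of highest level and a marker of arteries, was at 13.4 and 16.3 CPM in Ctrl and 17.8 and 16.6 CPM in TN. It stood at 83.5 and 82.8 CPM in the PRTN libraries, 67.1 and 67.3 in those of BUTN, 75.3 and 92.8 in those of TNPR and 72.9 and 77.9 in those of TNBU. Its log2 fold changes of 2.27, 1.97, 2.28 and 2.13 (standard error 0.11 or 0.12, adjusted p at most 3.83e-08) were rises of 4.84-, 3.91-, 4.86- and 4.39-fold. EFNB1 rose by 1.36, 1.56, 1.62 and 1.75 and EFNB3 by 2.56, 2.46, 2.13 and 2.20 on the log2 scale. The summed level of the B ephrins was 4.46 ± 0.538 CPM per kb in Ctrl and 4.98 ± 0.1 in TN, and 21.3 ± 0.131, 18.5 ± 0.278, 21.9 ± 3.13 and 20.5 ± 1.19 in PRTN, BUTN, TNPR and TNBU (SD, n = 2 each).

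The A ephrins include neighbours on chromosome 1 that moved apart. EFNA3 (155078837 to 155087538) was at 5.03 and 5.31 CPM in TN and 17 to 21.1 CPM in the SCFA libraries, with log2 fold changes of 1.94, 1.78, 1.92 and 1.76 (standard error 0.13). EFNA4, beside it (155063737 to 155069553), was not called, at 17.6 and 17.1 CPM in TN and 12.2 to 17.8 CPM in the SCFA libraries. Both share exons with the read-through gene EFNA4-EFNA3, so their counts could be split between them. EFNA1 (155127876 to 155134899, all 3 on the plus strand), the next gene of the family along the chromosome, fell in each group and is described with the TNF-α comparison. EFNA5 (chromosome 5, 107376894 to 107670937, minus strand), a repellent in the mapping of retinal axons, fell from 83.3 and 84.7 CPM in TN to 34.4 and 36.7 in the PRTN libraries, 42.9 and 44.5 in those of BUTN, 38.2 and 42.3 in those of TNPR and 40.1 and 45.5 in those of TNBU. For EFNA5 the log2 fold changes were -1.24, -0.94, -1.06 and -0.97 (standard error 0.07 or 0.08). EFNA2 was called lower in TNPR, at -0.79 (standard error 0.19).

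**Figure D3:**
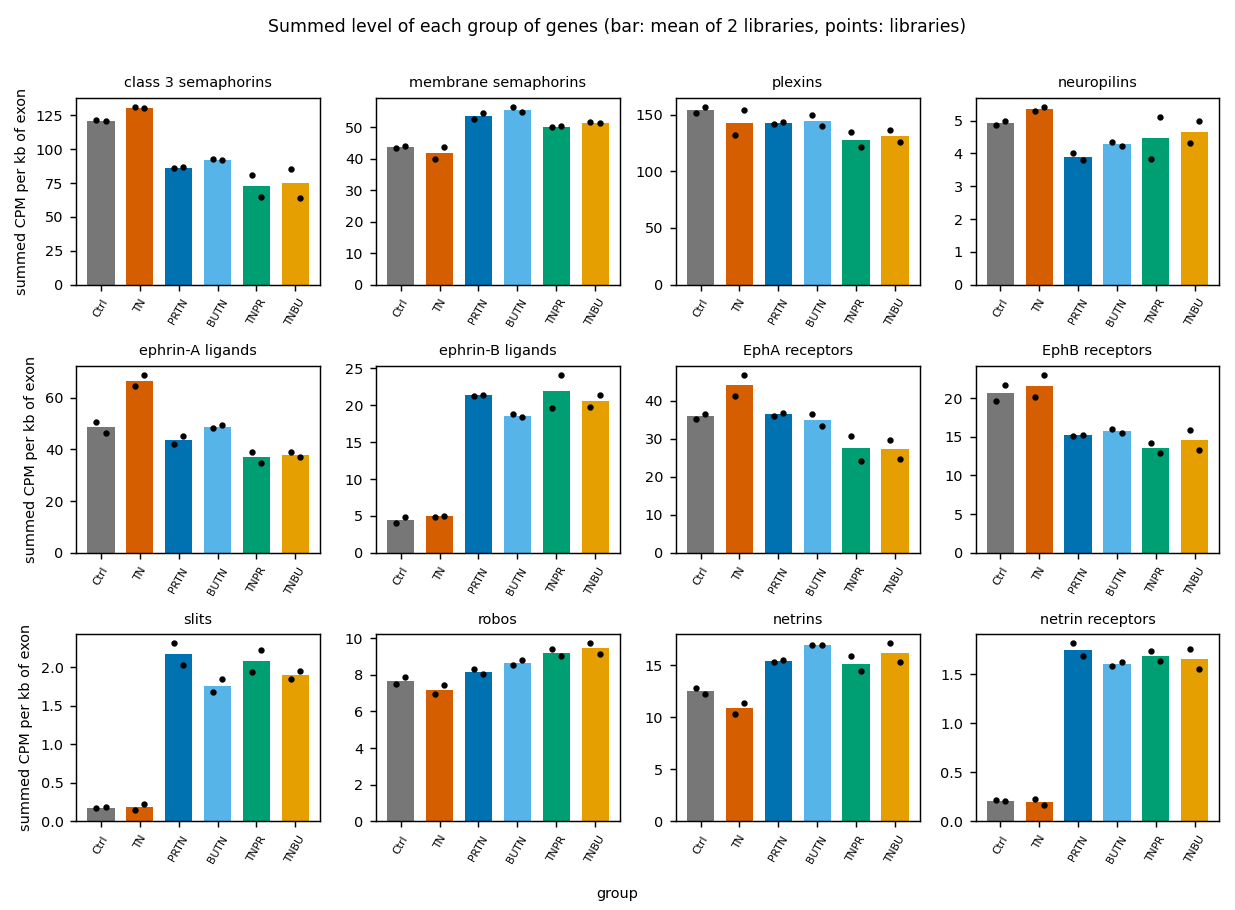
Summed CPM per kilobase of exon for each family (panels) in the 6 groups (horizontal axis), with bars for the mean of 2 libraries and points for the libraries. Membrane semaphorins, ephrin-B ligands, slits, robos, netrins and netrin receptors stand higher in each SCFA library than in each Ctrl and TN library, class 3 semaphorins and EphB receptors lower.

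Eph receptors are receptor tyrosine kinases, of which EphA members mainly bind A ephrins and EphB members B ephrins. EPHB3 (chromosome 3, 184561785 to 184582408, plus strand), which helps to place cells along the intestinal crypt, showed the largest fitted change of the 66 genes. It had 7 and 3 counts in Ctrl and 0 and 2 counts in TN, and then 5.41 and 5.29 CPM in the PRTN libraries, 4.82 and 5.78 in those of BUTN, 4.98 and 5.09 in those of TNPR and 5.29 and 5.68 in those of TNBU. The ratios of PRTN, BUTN, TNPR and TNBU to TN were 146, 145, 138 and 150, with 95% counting intervals that began at 40.3, 40.0, 37.8 and 41.2 and ended at 1214, 1206, 1141 and 1245, since TN had 2 counts in all (exact intervals, counting error only). The fitted log2 fold changes were 7.04, 7.02, 6.95 and 7.07 (standard error 0.73, adjusted p at most 4.61e-06). EPHB1 rose by 3.11, 2.32, 3.42 and 3.42 and EPHB6, which lacks kinase activity, by 3.17, 3.62, 3.34 and 3.75 on the log2 scale, both from under 0.2 CPM in TN.

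The EphB genes of higher level did not rise. EPHB2 (chromosome 1, 22710839 to 22921500, plus strand) fell from 162 and 177 CPM in TN to 66.2 and 65.4 in the PRTN libraries, 70.3 and 65.7 in those of BUTN, 65.1 and 57.0 in those of TNPR and 69.3 and 55.3 in those of TNBU. For EPHB2 the log2 fold changes were -1.36, -1.32, -1.47 and -1.45 (standard error 0.10, adjusted p at most 3.4e-07). EPHB4 (chromosome 7, 100802565 to 100827523, minus strand), the receptor that pairs with EFNB2 in veins and the EphB gene of highest mean level per kilobase over the 12 libraries, was not called. It stood at 45.9 and 56.6 CPM in TN, 52.9 and 54.8 in the PRTN libraries, 58.0 and 55.9 in those of BUTN, 48.1 and 43.0 in those of TNPR and 55.9 and 45.2 in those of TNBU. EPHB2 held 62.9% of the EphB level per kilobase in TN and 34.1% to 36.1% in the SCFA groups, while EPHB3 went from 0.0345% to between 7.43% and 8.41%. The summed EphB level was 21.5 ± 2.04 CPM per kb in TN and 15.2 ± 0.1, 15.8 ± 0.310, 13.5 ± 0.926 and 14.5 ± 1.84 in PRTN, BUTN, TNPR and TNBU (SD, n = 2 each). The B ephrin sum was thus higher and the EphB sum lower than in TN, and these sums were not tested.

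Among the 9 EphA receptors, 6, 4, 5 and 5 were higher in PRTN, BUTN, TNPR and TNBU and 1, 1, 2 and 3 lower. Of all tested genes, 23.9%, 23.1%, 24.9% and 25.0% were higher and 16.7%, 14.8%, 16.9% and 16.5% lower. The EphA rises include EPHA7 and EPHA8, which passed the filter only with the SCFA libraries. EPHA2 (chromosome 1, 16124337 to 16156069, minus strand), an epithelial receptor of EFNA1, held 90.5% of the EphA level per kilobase in TN. It was at 154 and 176 CPM in TN, 135 and 137 in the PRTN libraries, 138 and 125 in those of BUTN, 114 and 88.0 in those of TNPR and 109 and 89.5 in those of TNBU, and was called lower in TNPR and TNBU (log2 fold changes -0.72 and -0.74, standard error 0.12) but not in PRTN and BUTN (-0.27 and -0.32). Both calls were lost with scaling by library size, at -0.54 each. EPHA3 (chromosome 3, 89107621 to 89482134, plus strand), a receptor of EFNA5, fell in each group, from 19.3 and 20.8 CPM in TN to 10.7 and 10.1 in the PRTN libraries, 7.82 and 9.36 in those of BUTN, 9.63 and 8.28 in those of TNPR and 10.9 and 8.20 in those of TNBU. For EPHA3 the log2 fold changes were -0.95, -1.22, -1.16 and -1.08 (standard error 0.13).

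The EphA genes that rose were at low level. EPHA5 (chromosome 4, 65319563 to 65670495, minus strand) had 0.149 and 0.108 CPM in TN, 1.92 and 2.02 in the PRTN libraries, 1.81 and 1.52 in those of BUTN, 2.10 and 2.21 in those of TNPR and 2.34 and 1.92 in those of TNBU. On the log2 scale EPHA5 rose by 3.78, 3.53, 3.90 and 3.88 (standard error 0.43). EPHA7 (chromosome 6, 93240020 to 93419687, minus strand) had 1 and 0 counts in TN, 33 and 54 in the PRTN libraries, 29 and 26 in those of BUTN, 37 and 49 in those of TNPR and 31 and 35 in those of TNBU, and was tested only through its SCFA libraries. Its ratio to TN was 70.6, 45.2, 72.4 and 61.5 in PRTN, BUTN, TNPR and TNBU, with 95% counting intervals starting at 12.3, 7.78, 12.6 and 10.7 and ending at 2820, 1818, 2891 and 2467. EPHA8 had 0 counts in the Ctrl and TN libraries and 3 to 12 counts in each SCFA library, an at least 1.64-, 2.89-, 1.67- and 2.14-fold higher level than 3 counts in each TN library. EPHA6 rose in PRTN, TNPR and TNBU (1.20, 1.43 and 1.13) and was at 1.04 in BUTN without a call, and EPHA1, whose exons overlap those of ZYX on the opposite strand, was called lower in TNBU alone (-1.05, standard error 0.34). EPHA10, a member without an active kinase, rose by 1.47, 1.88, 1.17 and 1.77 on the log2 scale.

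All 3 slits, the secreted repellents that bind robos, rose in each SCFA group, as did 18.4% of all tested genes. SLIT2 (chromosome 4, 20251905 to 20620561, plus strand) was at 1.48 and 1.76 CPM in Ctrl and 1.23 and 2.01 CPM in TN. It reached 24.1 and 21.0 CPM in the PRTN libraries, 16.7 and 18.6 in those of BUTN, 20.1 and 22.7 in those of TNPR and 19.0 and 19.2 in those of TNBU, rises of 14.1-, 11.0-, 13.4- and 12-fold (log2 fold changes 3.82, 3.47, 3.74 and 3.58, standard error 0.23, adjusted p at most 1.04e-07). The lowest SCFA library stood well above the highest Ctrl or TN library. SLIT1, which shares exons with the read-through gene ARHGAP19-SLIT1, rose by 3.44, 3.92, 3.58 and 3.86 and SLIT3 by 1.14, 1.39, 1.28 and 1.46 on the log2 scale, both staying under 1.4 CPM. Summed per kilobase, the slits were at 0.182 ± 0.0603 CPM per kb in TN and at 2.17 ± 0.201, 1.76 ± 0.116, 2.08 ± 0.200 and 1.90 ± 0.0758 in PRTN, BUTN, TNPR and TNBU (SD, n = 2 each).

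The slit receptors changed little. ROBO1 (chromosome 3, 78597239 to 79767998, minus strand), the main robo in these cells, went from 49.0 and 51.9 CPM in TN to 74.3 and 68.5 in the PRTN libraries, 68.7 and 70.4 in those of BUTN, 77.3 and 76.8 in those of TNPR and 84.5 and 72.3 in those of TNBU. Each SCFA library was above each TN library, but the log2 fold changes of 0.50, 0.46, 0.61 and 0.63 (standard error 0.09) lay on either side of the 1.5-fold threshold, which the later 2 passed. Without TN replicate 1 the changes in TNPR and TNBU were 0.54 and 0.57 and were not called, nor were 0.56 without either TNPR library and 0.48 without TNBU replicate 1, and 0.58 in TNPR in the fit of the compared groups alone. With scaling by library size ROBO1 was called in all 4 groups (0.66, 0.62, 0.78 and 0.83), so the split between groups depends on the scaling. ROBO3, which is known for a form that lets axons cross the midline, was called lower in PRTN (-0.61, standard error 0.12) and not in the others, where it lay at -0.15, -0.22 and -0.16. ROBO2 and ROBO4, an endothelial robo, stayed under 0.4 CPM and were not called.

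Netrins attract axons through DCC and repel them through UNC5 receptors, and these receptors also act as dependence receptors in cell survival. NTN1 (chromosome 17, 9021510 to 9244000, plus strand), the main netrin, was at 48.9 and 58.9 CPM in TN, 74.9 and 76.5 in the PRTN libraries, 85.1 and 84.0 in those of BUTN, 82.3 and 73.7 in those of TNPR and 90.0 and 75.9 in those of TNBU. Its log2 fold changes of 0.50, 0.66, 0.54 and 0.62 (standard error 0.10) passed the threshold in BUTN and TNBU. Without TN replicate 1 they were 0.49 and 0.47 in these groups, without TNBU replicate 1 0.46 in TNBU, and none of these was called. Without TN replicate 2 the changes in PRTN and TNPR were 0.60 and 0.64 and were called, and with scaling by library size NTN1 was called in all 4 groups (0.65, 0.81, 0.71 and 0.82). NTN3 was not called. NTN5 was called higher in TNPR and TNBU on 5 to 8 counts a library, beside 2 counts in TN in all, with ratios of 5.05 and 6.06 whose 95% counting intervals ran from 1.12 to 46.4 and from 1.37 to 55.3.

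The UNC5 receptors moved in both directions. UNC5B (chromosome 10, 71212570 to 71302864, plus strand), known in endothelial cells and as a target of p53, was at 0.206 and 0.215 CPM in Ctrl and 0.186 and 0.215 CPM in TN. It reached 5.82 and 5.54 CPM in the PRTN libraries, 5.07 and 5.03 in those of BUTN, 5.30 and 5.34 in those of TNPR and 5.36 and 5.51 in those of TNBU, with log2 fold changes of 4.70, 4.53, 4.61 and 4.64 (standard error 0.32, adjusted p at most 1.84e-07). UNC5A (chromosome 5, 176810519 to 176880898, plus strand) was at 0.149 and 0.215 CPM in TN, 3.995 and 3.65 in the PRTN libraries, 3.57 and 3.67 in those of BUTN, 4.06 and 3.52 in those of TNPR and 4.03 and 3.19 in those of TNBU. On the log2 scale UNC5A rose by 4.28, 4.20, 4.26 and 4.18 (standard error 0.40). Its exons overlap those of HK3 on the opposite strand. UNC5C (chromosome 4, 95162504 to 95549206, minus strand) had 46 and 24 counts in TN, 11 and 10 in the PRTN libraries, 6 and 14 in those of BUTN, 8 and 9 in those of TNPR and 12 and 4 in those of TNBU. Its log2 fold changes were -1.91, -2.06, -2.15 and -2.28 (standard errors 0.48 to 0.54, adjusted p at most 0.00448). Per kilobase, UNC5C made up 61.0% of the netrin receptor level in TN and 1.46% to 1.72% in the SCFA groups, and UNC5A made up 50.1% to 52.2% there. The summed level was 0.192 ± 0.0424 CPM per kb in TN and 1.75 ± 0.0923, 1.61 ± 0.0230, 1.69 ± 0.0703 and 1.66 ± 0.144 in PRTN, BUTN, TNPR and TNBU (SD, n = 2 each).

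**Figure D4:**
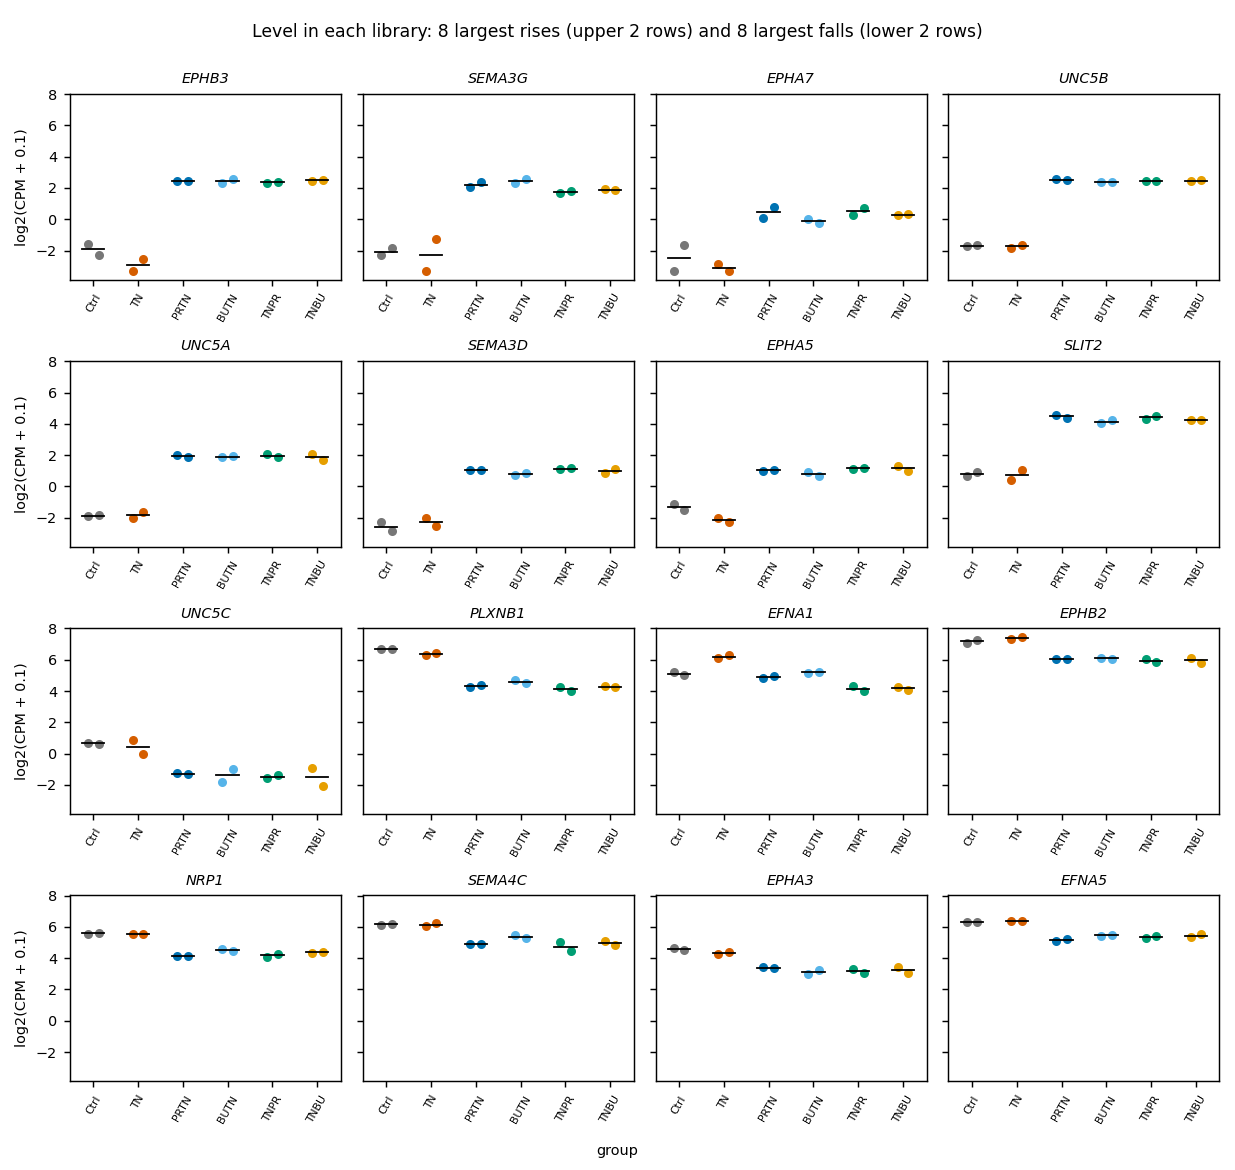
Level in each library, as log2 of CPM plus 0.1, of the 8 genes with the largest mean rise and the 8 with the largest mean fall over the SCFA groups against TN, among genes called in each group and reaching 1 CPM, with a line at the mean of each group. The choice of genes fixes that the SCFA libraries lie apart from TN, and the panels show by how much.

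TNF-α alone moved few of these genes. In TN against Ctrl, 1 of the 66 was called higher (background 0.764%) and 2 lower (background 0.534%), and the median log2 fold change was -0.05, beside -0.01 for all genes. EFNA1, first described as a TNF-α-inducible gene of endothelial cells, was at 37.1 and 32.0 CPM in Ctrl and 69.3 and 78.1 CPM in TN, a 2.14-fold rise (log2 fold change 1.09, standard error 0.11, adjusted p = 0.000154). EPHA4 (chromosome 2, 221418027 to 221574202, minus strand), a receptor of both ephrin classes, went from 9.93 and 9.57 CPM to 4.67 and 4.65 CPM (log2 fold change -1.06, standard error 0.13, adjusted p = 0.000908). NTN4 (chromosome 12, 95657807 to 95791189, minus strand), a netrin of basement membranes, went from 19.0 and 17.3 CPM to 10.6 and 8.47 CPM (log2 fold change -0.94, standard error 0.11, adjusted p = 0.00071). NRP2 was at 0.66 (standard error 0.20, adjusted p = 0.107) and was called by DESeq2 and by the fit of Ctrl and TN alone, but not by limma-voom on all groups.

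These 3 genes were chosen by their difference between TN and Ctrl, and the comparisons with TN reuse the same TN libraries, so a position nearer to Ctrl is favoured by the choice and is given as a description. EFNA1 was at 27.9 and 30.6 CPM in the PRTN libraries, 36.1 and 36.6 in those of BUTN, 20.1 and 15.7 in those of TNPR and 19.3 and 16.9 in those of TNBU, with log2 fold changes against TN of -1.33, -1.02, -2.05 and -2.02 (standard errors 0.10 to 0.12). The libraries of PRTN, TNPR and TNBU lay below both Ctrl libraries. EPHA4 was called higher than TN in PRTN (0.66, standard error 0.14) and lay at 0.38, 0.51 and 0.41 in BUTN, TNPR and TNBU without a call. Its levels were 6.99 and 7.76 CPM in the PRTN libraries, 6.18 and 6.0 in those of BUTN, 6.99 and 6.31 in those of TNPR and 6.88 and 5.61 in those of TNBU. NTN4 was called higher in PRTN and BUTN (0.62 and 0.61, standard error 0.11) and lay at 0.29 and 0.45 in TNPR and TNBU. The gene was at 14.6 and 14.4 CPM in the PRTN libraries, 13.7 and 15.2 in those of BUTN, 11.3 and 11.9 in those of TNPR and 12.5 and 13.3 in those of TNBU.

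**Figure D5:**
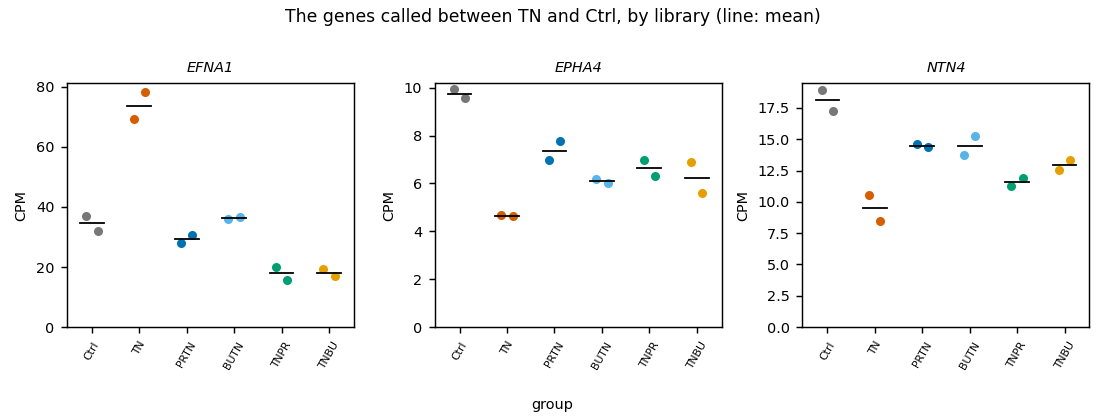
CPM of EFNA1, EPHA4 and NTN4 in each library of the 6 groups, with a line at the mean of the 2 libraries. EFNA1 is highest in TN, at 69.3 and 78.1 CPM, and lowest in TNPR and TNBU, while EPHA4 and NTN4 are lowest in TN.

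The order of SCFA and TNF-α made a called difference for EFNA1 alone. Between TNPR and PRTN, 0 genes were called higher (background 0.0534%) and 1 lower (background 0.107%), and 10 of 66 had an unadjusted p under 0.05. Between TNBU and BUTN, 0 were higher (background 0.0945%) and 1 lower (background 0.173%), with 13 at an unadjusted p under 0.05. The 1 gene was EFNA1 each time, lower by a log2 fold change of -0.71 after propionate (95% interval -0.98 to -0.45, adjusted p = 0.038) and of -1.01 after butyrate (-1.27 to -0.74, adjusted p = 0.00434). The propionate difference was not called without PRTN replicate 1 (-0.80), PRTN replicate 2 (-0.66) or TNPR replicate 2 (-0.57), nor with no filter, with a replicate block or in the fit of the compared groups alone (-0.71 each). The butyrate difference was not called in that last fit either. The timings differed between these groups by more than the order, since by the labels TNF-α came last, for 3 h, in PRTN and BUTN and the SCFA last, for 24 h, in TNPR and TNBU, so order and time since TNF-α cannot be told apart. The change of EFNA1 with order was not called different between the SCFAs (log2 difference 0.29, 95% interval -0.08 to 0.67), and 0 of the 66 genes had a called difference of that kind by limma-voom, with 2 at an unadjusted p under 0.05.

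No guidance gene was called between the SCFAs, which were given at unequal doses. For PRTN against BUTN, 0 genes were called in either direction (background 0.0411% higher and 0.127% lower), 14 had an unadjusted p under 0.05, and the smallest adjusted p was 0.0648. It belonged to NRP1, which was lower in PRTN by a log2 fold change of -0.37 (95% interval -0.55 to -0.20). For TNPR against TNBU, 0 were called (background 0.00% higher and 0.00822% lower), 6 had an unadjusted p under 0.05, and the smallest adjusted p was 0.346, for EPHA10 (-0.60, 95% interval -0.96 to -0.24). edgeR and DESeq2 also called 0 in both comparisons. Among genes called against TN in each SCFA group, some intervals for PRTN against BUTN were narrow. These were EFNB2 (0.31, 0.10 to 0.51), SLIT2 (0.35, 0.12 to 0.58) and UNC5B (0.17, -0.07 to 0.41). The intervals were wider for SEMA3G (-0.23, -0.68 to 0.23) and SEMA3D (0.24, -0.19 to 0.68). That of UNC5C (0.14, -1.14 to 1.43) took in 2-fold differences in either direction. EPHB1 was lower in BUTN, at 0.688 and 0.896 CPM, than in the other SCFA libraries, at 1.31 to 1.82 CPM, but the comparisons of BUTN with PRTN and TNBU missed the threshold (adjusted p = 0.191 and 0.074).

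Among the intracellular partners of these receptors, the numbers of genes that rose and fell were close. Of 55 tested effectors of guidance signalling, such as adaptors and kinases, 14, 11, 14 and 14 were higher in PRTN, BUTN, TNPR and TNBU (25.5%, 20%, 25.5% and 25.5%, near the 23.9%, 23.1%, 24.9% and 25.0% of all genes). In the same order 11, 9, 13 and 10 were lower (20%, 16.4%, 23.6% and 18.2%, against 16.7%, 14.8%, 16.9% and 16.5%). Their medians were 0.04, 0.05, -0.01 and 0.00 (log2) beside the 0.09, 0.08, 0.12 and 0.09 of all genes. SRGAP3, a slit-robo GTPase-activating protein, rose by 3.48, 3.31, 3.43 and 3.51 and NGEF, the exchange factor ephexin, by 3.03, 3.30, 2.84 and 2.98 on the log2 scale. FYN, a kinase downstream of Eph and netrin receptors, was at 4.22 ± 0.135 CPM in TN and 18.7 ± 0.443 in PRTN (SD, n = 2), which is 2.14 on the log2 scale (standard error 0.21). These genes were named for the size of their change. Of the 8 effectors lower in each group, SRC, a kinase of focal adhesions, VASP, an actin regulator, and CRMP1, a collapsin response mediator, had the largest mean falls and were picked after their values were seen. SRC was at 254 CPM in TN and at 94.4, 119, 67.7 and 78.1 CPM in PRTN, BUTN, TNPR and TNBU (means, log2 fold changes -1.43, -1.09, -1.91 and -1.71), and VASP and CRMP1 had -1.04 and -1.17 in PRTN.

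Among other guidance ligands and co-receptors, outside the rule, more genes rose than fell. Of the 34 tested, 21, 20, 19 and 19 were higher in the same order (61.8%, 58.8%, 55.9% and 55.9%, against 23.9%, 23.1%, 24.9% and 25.0% of all genes). Lower were 5, 4, 4 and 4 (14.7%, 11.8%, 11.8% and 11.8%, against 16.7%, 14.8%, 16.9% and 16.5%). The medians of these genes were 1.02, 1.02, 0.94 and 0.91 (log2) beside 0.09, 0.08, 0.12 and 0.09 for all genes. Of the 34, 2 (NGFR and LINGO1) had 0 counts in TN, could only be called higher and passed the filter through the SCFA libraries. With these 2 set to their lower bound the medians were unchanged, and the counts were not taken without such genes. NGFR, LINGO1 and DRAXIN were named for the size of their change. NGFR, a neurotrophin receptor, had 0 counts in TN and 8.74 ± 0.326 CPM in PRTN (SD, n = 2), at least 79.7-fold higher than 3 counts in each TN library. LINGO1, its partner in the Nogo receptor complex, had 0 counts in Ctrl and TN and at least 5.26-fold more in PRTN. DRAXIN, a secreted repellent that binds DCC and netrins, had 0.0372 ± 0.0527 CPM in TN and 6.36 ± 0.221 in PRTN. L1CAM, an adhesion molecule of axons, and DSCAML1 were lower in each group, L1CAM by -0.86, -0.65, -0.91 and -0.76 on the log2 scale.

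The markers of cell identity also moved with SCFA treatment, and their part in the results above was not tested. The renal factor PAX8 was present in each group, at 403 CPM in TN and at 131 to 158 CPM as means of the SCFA groups. Of 21 renal markers, HNF4A, LRP2 and MME had 0 counts in Ctrl and TN and SLC34A1 stayed under 0.1 CPM. These markers of the differentiated proximal tubule were thus at or near 0 without SCFAs, while GGT1 was at 194 CPM in TN. AQP1 went from 0.439 CPM in TN to means of 6.31 to 14.8 CPM with SCFAs. Of 20 tested renal markers, 11, 11, 10 and 11 were called higher in PRTN, BUTN, TNPR and TNBU (55%, 55%, 50% and 55%). In the same order 23.9%, 23.1%, 24.9% and 25.0% of all tested genes were higher. In each group 6 renal markers were lower (30%, against 16.7%, 14.8%, 16.9% and 16.5%). The summed level of 15 neuronal markers was 454 to 511 CPM in the Ctrl and TN libraries and 716 to 778 CPM in the SCFA libraries. Of 13 tested neuronal markers, 10, 9, 10 and 10 were called higher in PRTN, BUTN, TNPR and TNBU (76.9%, 69.2%, 76.9% and 76.9%) and 0 lower. Of these markers, MAP2 and SYP are named for the size of their change. MAP2 went from 7.47 CPM in TN to means of 60.9 to 82.9 CPM with SCFAs, and SYP from 0.751 to 17.2 to 25.8 CPM. ELAVL4 was at 0 in each library, and STMN2, GAP43 and DCX stayed under 0.6 CPM. The sums of 10 endothelial and 8 fibroblast markers were 20.7 to 24.9 CPM and 52.9 to 60 CPM in Ctrl and TN. With SCFAs these sums were 72.8 to 85 CPM and 205 to 257 CPM, mostly through ESAM and COL1A1. The endothelial gene TIE1 went from 0.0731 CPM in TN to means of 3.2 to 6.56 CPM with SCFAs. The fibroblast gene LUM went from 8.03 CPM to means of 45.0 to 47.2 CPM. The endothelial gene KDR and the fibroblast gene COL1A2 stayed under 0.1 and 0.5 CPM. The sum of 10 leukocyte markers was 31.0 to 36.7 CPM in Ctrl and TN and 29.3 to 54.0 CPM with SCFAs, most of it CD68, with MS4A1 at 0. Of 7 tested leukocyte markers, 5, 4, 4 and 4 were called higher and 0 lower in PRTN, BUTN, TNPR and TNBU, with medians of 2.77, 2.07, 1.69 and 1.84 (log2). Of 8 tested endothelial markers 7, 7, 8 and 7 were higher, and of 8 fibroblast markers 6, 7, 6 and 7 were higher and 1 lower in each. The marker counts stand beside the 23.9%, 23.1%, 24.9% and 25.0% of all tested genes called higher. Tested markers with 0 counts in TN, such as ELAVL3, VWF and COL1A2, could only be called higher and passed the filter through the SCFA libraries.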

How the data were processed

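RNA was sequenced from 12 libraries of HK2 cells, 2 per group, with a stranded poly(A) kit. Per the submitters' processing notes, reads were checked with FastQC (0.11.5), aligned with STAR (2.6.1a) to GRCh38 and quantified with RSEM, and the authors deposited the expected counts, which are not normalized. Whether the counting used strand is not given in the sources used here. Of the values, 19.3% were not whole, and they were used as deposited.

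Genes were kept where the geometric mean of the counts plus 1, minus 1, was at least 1 over the 12 libraries (24342 kept, 33936 removed). TMM factors (edgeR 4.0.16) and limma-voom (limma 3.58.1, R 4.3.3) were applied to all 12 libraries in 1 fit with group means. Genes were called at a fold change over 1.5 and a Benjamini-Hochberg adjusted p under 0.05 over all kept genes. The fits were tested on simulated data with known changes between TN and Ctrl only. That simulation cannot speak for the comparisons with the SCFA groups, where many more genes were called. Positions and exon lengths are from GENCODE 44, while the counts use GENCODE 26.

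Values in the TN and SCFA libraries are given for the gene of highest level per kilobase in each family, the 8 largest rises and falls called in each SCFA group at 1 CPM or more, genes called in TN against Ctrl and up to 3 genes called between SCFA groups. The genes and lists were chosen with earlier results of these data known. Values of some genes of the lists are not reported here. Replicate numbers were not used as a pairing. The deviations of same-numbered samples correlated over 0.1 in 1 of 15 pairs of groups, where the correlation was 0.24. These correlations run over all genes and cannot show that the samples were unpaired. Alternatives included edgeR's quasi-likelihood test, DESeq2 (1.42.0), other scaling and filters, a replicate block and leaving out each library. The replicates are described as biological, and no more is given on how they were cultured.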

Additional observations from a re-analysis of the deposited data

Results flagged for a closer look

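EFNA1 was lower when the SCFA followed TNF-α than when it preceded it, by a log2 difference of -0.71 for propionate (TNPR against PRTN) and of -1.01 for butyrate (TNBU against BUTN). Both were singled out because the difference between the orders of treatment passed the limma-voom test, with both libraries of the later treatment below both of the earlier one each time.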

How the results depend on the processing

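Of 1200 values of named genes recomputed under the alternatives, 1175 kept their call and direction, 19 lost the call, 6 gained it and 0 reversed, and of 268 counts of called genes, 254 stayed within 1.5 times. In TN against Ctrl, DESeq2 and the fit of the compared groups alone each called 2 genes higher, and a fold threshold of 2 left 1 lower. A fold threshold of 2 left 7 lower in PRTN against TN. In TNPR against PRTN, 0 genes were lower with no filter, with the replicate block, with the compared groups alone and at a fold over 2 (EFNA1 stood at -0.71 in the first 3 of these), and leaving out 1 library gave 0 to 2, with 2 (EFNA1 and EPHA2) without TNPR replicate 1. In TNBU against BUTN, 0 were lower with the compared groups alone, and leaving out 1 library gave 1 to 2, with SEMA3C joining EFNA1 without TNBU replicate 1. Where 1 library was left out, the lone library of its group was assumed to vary like the other groups. The cause was not tested. The replicate numbers were not used as a pairing in the main fit. With the replicate block 32, 31, 32 and 31 genes were higher and 11, 9, 12 and 12 lower in PRTN, BUTN, TNPR and TNBU against TN. A geometric mean of 1 taken on the counts themselves tested 19096 genes, among them 58 guidance genes. Of these 58, 27, 27, 26 and 27 were called higher than TN in PRTN, BUTN, TNPR and TNBU. Of all 19096 genes, 4277, 4120, 4409 and 4434 were higher in the same order. With scaling by library size, EPHA2 lost its calls in TNPR and TNBU (-0.54 each), SEMA3C lost its call in BUTN (-0.53), and ROBO1 and NTN1 gained calls. Depth limits the genes with few counts in TN, such as EPHB3, EPHA7 and NTN5, whose ratios carry wide counting intervals.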
